A study of Homo sapiens with 4 samples.

Results

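The interferon-stimulated antiviral effectors described here are 42 genes of the interferon response that lie outside the IFIT, OAS, ISG15 and GBP families. They were chosen by gene symbol, with earlier results of these data known. A gene was taken as measured where the platform annotation gave its symbol to a probe set. Of the 42 genes, 41 were measured, among 17687 genes in all, and TDRD7 was not analysed here. The cells were THP-1, a line from a human monocytic leukaemia, and their RNA was read on Affymetrix Clariom S arrays. All 4 cultures had been stimulated with 100 ng/ml PMA (phorbol myristate acetate, which makes the cells macrophage-like) for 2 days and were harvested 24 h after lipid-carried transfection of a synthetic microRNA mimic. The groups were let-7d-5p mimic, miR-27b-3p mimic, miR-151a-5p mimic and negative control mimic, with 1 array in each. The control culture therefore also received lipid and a synthetic RNA, and untransfected cells were not analysed here. For the first group the title reads let-7d-5p but the protocol and the design text read let-7a-5p. It is named here by its title, as the array labelled let-7d-5p, and which of the mimics it carried is not settled.

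Interferons bind receptors that activate JAK kinases and STAT proteins, and a STAT complex containing IRF9 then binds interferon-stimulated response elements in the promoters of target genes. The effectors encoded by these targets act at separate steps of virus growth, such as entry, uncoating, RNA synthesis, translation and budding. In macrophages many of them are expressed at a basal level and increase after exposure to interferon or to double-stranded RNA.

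The guide strands of the let-7 mimics named in the labels and of the miR-27b-3p mimic are shown because the mimics are what set the arrays apart. Capitals mark the seed, bases 2 to 8, which pairs with target mRNAs, and the sequences are from RefSeq (GRCh38.p14).
hsa-let-7d-5p: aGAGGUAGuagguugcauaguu
hsa-let-7a-5p: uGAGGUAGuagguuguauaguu
hsa-miR-27b-3p: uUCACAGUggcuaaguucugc
The let-7 sequences share the seed and differ by A1U and C16U (the let-7d-5p base, the position from the 5′ end, then the let-7a-5p base), so that the mismatch between the labels does not change the seed. The miR-27b-3p seed is a different one.

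Promoters of the effectors are shown because these genes are grouped by their shared control. RefSeq windows of 300 bases, from 250 before to 50 after each start site, were held for 35 of the 41 genes. The core of the interferon-stimulated response element was searched on both strands as GAAA, any 2 bases and GAAA. It was in a window of 24 of the 35 genes (68.6%), against 4.38% of the 27305 genes in the table. The gamma-activated site, TTCNNNGAA, which reads alike on both strands and may overlap the core, was in a window of 11 of the 35 (31.4%), against 9.38% of all genes. A match is a description of letters and not a measured site. The sequences below are 30 bases from GRCh38.p14, on the strand that reads GAAA, with the core in capitals.
RSAD2, chr2:6877622-6877651, minus strand: ttccacatgtGAAACTGAAAgttgaaacag
MX1, chr21:41420559-41420588, plus strand: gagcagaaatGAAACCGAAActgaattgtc
IFI44, chr1:78649761-78649790, minus strand: tcagagaaagGAAACTGAAActcagtgtgc
IFI44L, chr1:78620274-78620303, plus strand: tcctagtgagGAAAAAGAAAgttagtggca
PARP9 and DTX3L, chr3:122564322-122564351, plus strand: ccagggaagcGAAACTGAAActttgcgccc
PARP14, chr3:122680800-122680829, plus strand: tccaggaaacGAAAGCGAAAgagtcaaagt
LGALS3BP, chr17:78979962-78979991, minus strand: gtggtttctgGAAATCGAAAgtagactctt
DDX60, chr4:168318786-168318815, minus strand: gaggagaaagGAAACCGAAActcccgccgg
DDX60L, chr4:168480523-168480552, minus strand: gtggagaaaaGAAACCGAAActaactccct
IFI6, chr1:27672288-27672317, minus strand: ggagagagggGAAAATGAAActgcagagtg
IFI27, chr14:94110631-94110660, plus strand: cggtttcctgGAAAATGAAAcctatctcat
BST2, chr19:17405741-17405770, minus strand: tcctttctggGAAACTGAAActgaaaacct
A single core lay in the windows of both PARP9 and DTX3L, which are transcribed in opposite directions from it. The 30 bases shown for IFI44L occurred again, letter for letter, at chr1:78620365-78620394. IFI6, IFI27 and BST2 hold the core, and none of their signals was 1.5-fold apart from the control, as given below. The same was true of IFI44, DTX3L, DDX60 and DDX60L. CMPK2, MX2, TRIM22 and HELZ2, each past 1.5-fold on a mimic array, were not among the 24 genes with the core. CMPK2 had a window without the core, but genes of the 41 with no window were not searched and could not be among the 24. The 24 genes with the core had median log2 differences from the control array of 0.32 on the let-7d-5p array, 0.30 with miR-27b-3p and 0.19 with miR-151a-5p. For the 11 genes with a window and no core the medians were 0.34, 0.27 and 0.33. A core with a mismatch, or outside the window, counted as absent, and the part of the core in these differences was not tested.

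Every one of the 41 genes had a log2 signal above the background floor of 5.34 on all 4 arrays. The floor was the 95th percentile of the signals of 348 olfactory receptor genes, used as a stand-in for genes that are silent in monocytic cells. The effectors' signals ran from 7.08 (HELZ2) to 16.53 (IFI6) on the let-7d-5p array, 6.77 to 16.48 on the miR-27b-3p array, 7.01 to 16.59 on the miR-151a-5p array and 6.48 to 16.43 on the control array. The median effector lay at 12.35, 12.27 and 12.09 on the mimic arrays in that order and at 11.92 on the control array. Medians of all probe sets lay between 6.89 and 6.93 on the 4 arrays. Of 13 measured monocyte and macrophage markers, 12 were above the floor on all arrays, with CSF1R between 15.80 and 15.83 and CD68 between 15.25 and 15.41. CD163 was at 11.42, 11.00 and 10.65 on the mimic arrays, against 10.68 on the control array, and CD4 at 11.68, 11.82 and 11.10, against 11.98, and their part in the results below was not tested. One label calls the line lymphocyte-like. Of 8 T cell markers 2 (CD3G and CD5) were above the floor on all arrays, and CD3D, CD2, CD8A, TRAT1 and LCK on none. Of 4 measured B cell markers 3 were above it, and MS4A1 on none. Of 4 measured NK cell markers 3 were above it. GNLY was at 11.22, 11.02 and 10.55 on the mimic arrays, against 11.06 on the control array, and NKG7 at 8.20, 8.02 and 8.03, against 8.11. Of 5 epithelial markers 2 were above the floor on all arrays, and of 6 fibroblast and endothelial markers 4. Passing the floor thus did not by itself tell cell types apart. A signal from a whole culture cannot tell more responding cells apart from more RNA in each cell.

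**Figure D1:**
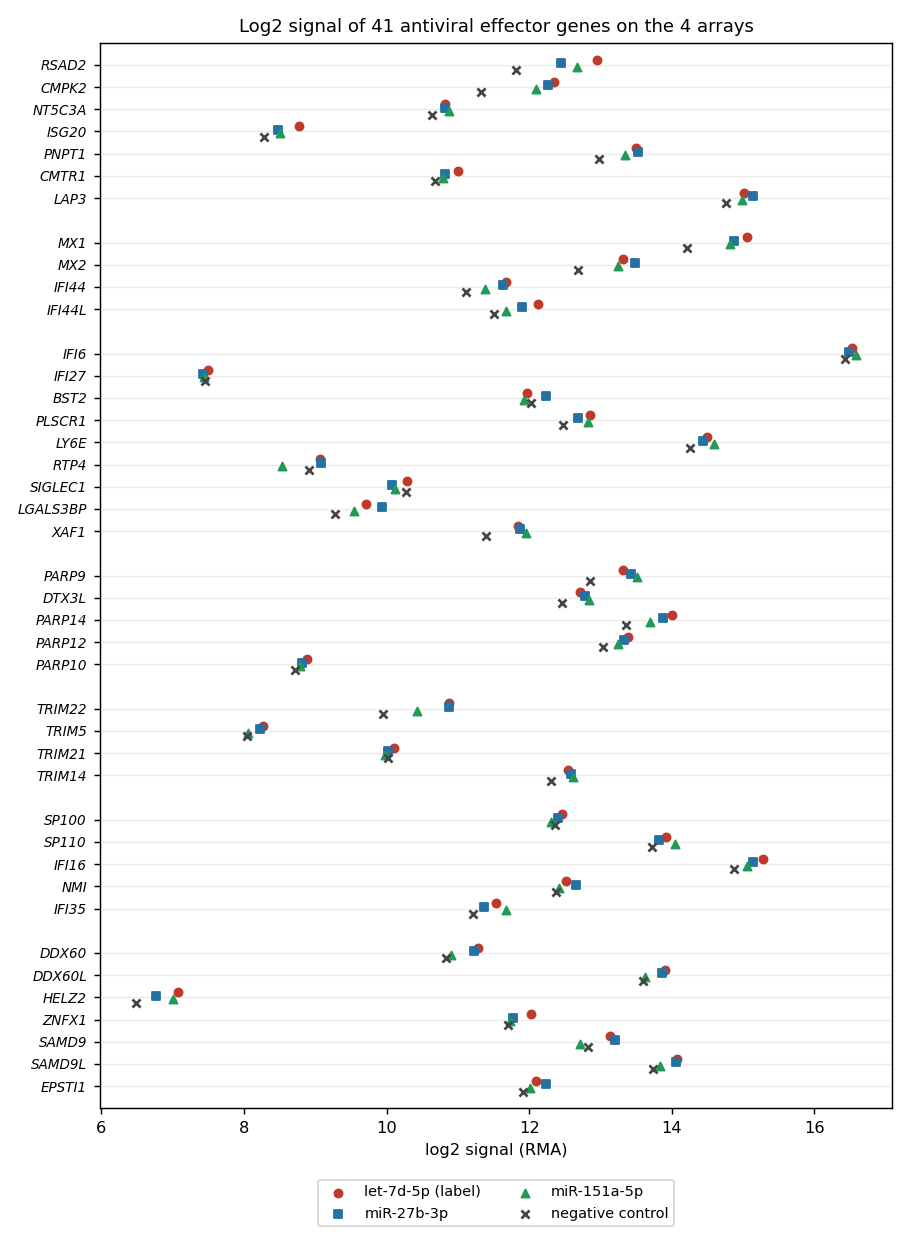
Log2 signal (x axis) of each of the 41 measured effectors (rows, grouped by role) on the 4 arrays, 1 point for each array. RSAD2, CMPK2, MX1 and TRIM22 have their control value well to the left of all mimic values, while the points of IFI6, IFI27 and SIGLEC1 nearly coincide.

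The question for each mimic was which effectors stood higher or lower than with the negative control. On the let-7d-5p array 40 of the 41 genes were higher than on the control array, against 49.2% of all genes, and 1 was lower. On the miR-27b-3p array 38 were higher, 2 lower and 1 equal, against 50.3% of all genes higher. On the miR-151a-5p array 34 were higher and 7 lower, against 47.3% of all genes higher. The median log2 difference of the effectors was 0.32 (1.25-fold), 0.28 (1.21-fold) and 0.23 (1.17-fold) on the 3 arrays, beside 0.00, 0.01 and -0.01 for all genes. Among genes above the floor on at least 1 of the 2 arrays, the medians were -0.01, -0.01 and -0.03, and 47.8%, 48.1% and 44.6% were higher.

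Differences of single effectors were small. At least 1.5-fold higher (0.585 on the log2 scale) were 8 effectors on the let-7d-5p array (4.42% of all genes), 6 on the miR-27b-3p array (5.07%) and 4 with miR-151a-5p (5.29%). Among genes above the floor on at least 1 of the 2 arrays, 376 of 11893, 451 of 11928 and 528 of 11902 were. None of the 41 was 1.5-fold lower on any mimic array, against 3.56%, 4.70% and 3.57% of all genes. At least 2-fold higher were 2 effectors on the let-7d-5p array (0.588% of all genes) and 0 on the other two (0.605% and 0.972%). None reached 3-fold, the size the study used, against 0.0226%, 0.0396% and 0.0226% of all genes that were 3-fold higher. Just inside 1.5-fold were HELZ2 on the let-7d-5p array (0.60), RSAD2 on the miR-27b-3p array (0.64) and MX1 on the miR-151a-5p array (0.61). Just outside were IFI44 (0.56), PARP9 (0.57) and XAF1 (0.57). The standard deviation of the differences of genes above the floor was 0.30, 0.33 and 0.32, against 0.27, 0.25 and 0.26 for the effectors. With 1 array in each group these are differences between 2 arrays with no replicate check, and no test was possible. All 3 comparisons share the control array, so that an unusual value there moves all 3 together, and they are not independent of each other.

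**Figure D2:**
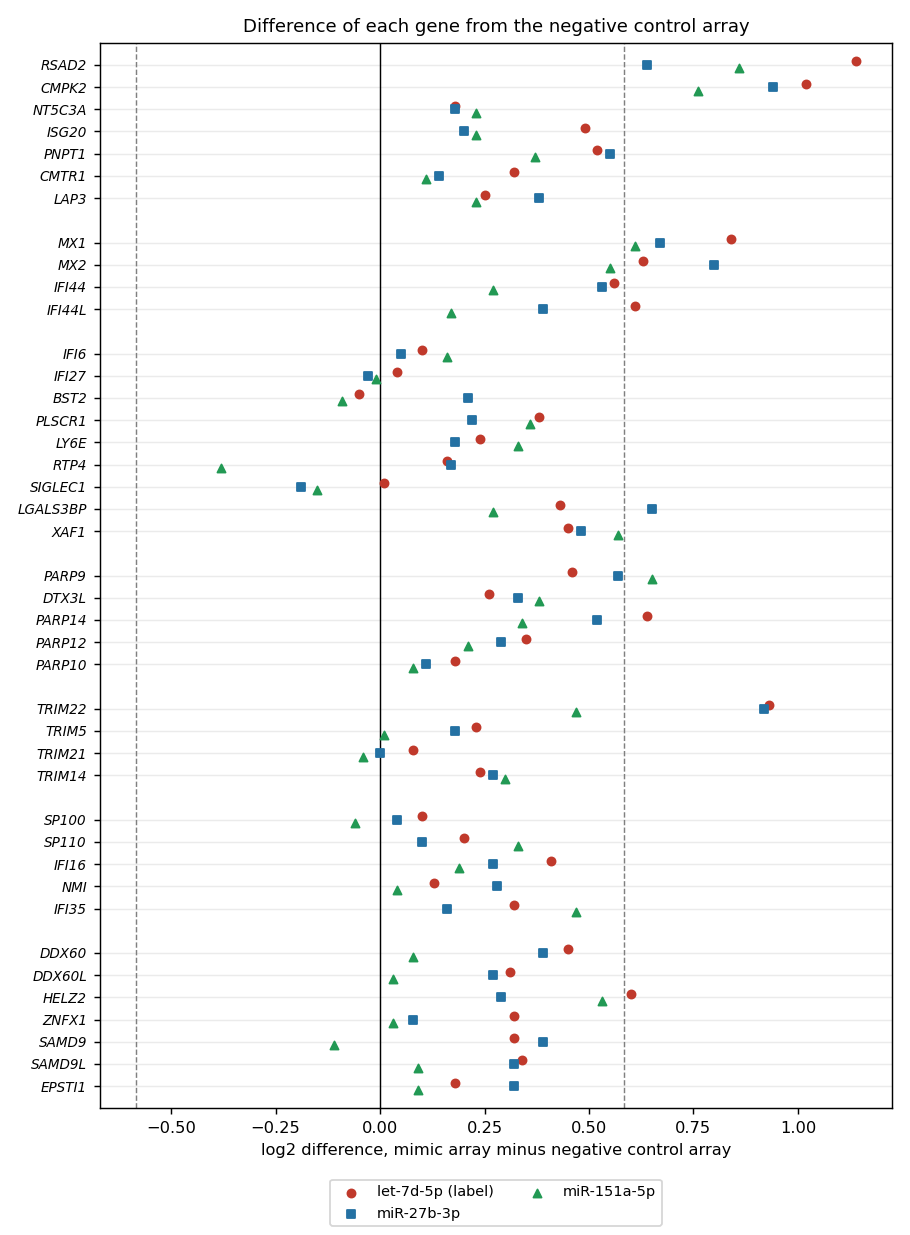
Log2 difference of each effector from the negative control array (x axis) for the 3 mimic arrays (1 point each), with dashed lines at 1.5-fold in both directions. No point lies left of the lower dashed line, and RSAD2 and CMPK2 on the let-7d-5p array lie beyond a log2 difference of 1.

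The enzymes, which act on nucleotides and RNA apart from the peptidase LAP3, held the largest differences on the let-7d-5p array. RSAD2 encodes viperin, a radical SAM enzyme that makes a chain-terminating nucleotide and so stops viral RNA synthesis. Its log2 signal was 12.95 on the let-7d-5p array, 12.45 with miR-27b-3p and 12.67 with miR-151a-5p, against 11.81 on the control array. All mimic values were above the control, by 2.20-fold, 1.56-fold and 1.82-fold, and the let-7d-5p difference of 1.14 ranked 29 among 11893 genes above the floor. CMPK2, a mitochondrial nucleotide kinase whose gene neighbours RSAD2, was at 12.35, 12.27 and 12.09, against 11.33 on the control array. It was thus 2.03-fold, 1.92-fold and 1.69-fold higher, with less difference among the mimics than RSAD2 (0.26 against 0.50 from the highest to the lowest mimic array). PNPT1, the mitochondrial polynucleotide phosphorylase, differed by 0.52, 0.55 and 0.37. ISG20, an RNA exonuclease, differed by 0.49 on the let-7d-5p array and by 0.20 and 0.23 on the others. CMTR1, which methylates the mRNA cap, stood at 0.32, 0.14 and 0.11, LAP3, a leucine aminopeptidase, at 0.25, 0.38 and 0.23, and NT5C3A, a pyrimidine nucleotidase, at 0.18, 0.18 and 0.23. All 7 genes of this class, LAP3 included, were above the control on each mimic array, with class medians of 0.49, 0.38 and 0.23.

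The dynamin-like GTPases and the IFI44 proteins had the highest class medians, 0.62, 0.60 and 0.41 for 4 genes. MX1 encodes MxA, which blocks the ribonucleoproteins of influenza and other RNA viruses. Its log2 signal was 15.05 on the let-7d-5p array, 14.88 with miR-27b-3p and 14.82 with miR-151a-5p, against 14.21 on the control array, or 1.79-fold, 1.59-fold and 1.53-fold higher. MX2, which encodes the HIV-1 restriction factor MxB, was at 13.32, 13.49 and 13.24, against 12.69 on the control array. Its highest value was on the miR-27b-3p array (1.74-fold), and that of MX1 on the let-7d-5p array. IFI44L was at 12.12, 11.90 and 11.68, against 11.51 on the control array, and its neighbour IFI44 at 11.67, 11.64 and 11.38, against 11.11. For both IFI44 genes the mimic arrays stood in the same order, with let-7d-5p highest and miR-151a-5p closest to the control (differences of 0.17 for IFI44L and 0.27 for IFI44).

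Factors that act through ADP-ribose were all above the control on each mimic array, 5 of 5, with medians of 0.35, 0.33 and 0.34. PARP9 and DTX3L form a complex that modifies histones and viral proteins, and PARP14 is a mono-ADP-ribosyltransferase with macrodomains. PARP9 was at 13.32 on the let-7d-5p array, 13.43 with miR-27b-3p and 13.51 with miR-151a-5p, against 12.86 on the control array. DTX3L was at 12.72, 12.79 and 12.84, against 12.46. The genes of the complex, which share the promoter core printed above, had the same order of arrays, with miR-151a-5p highest (0.65 for PARP9 and 0.38 for DTX3L). PARP14 ran the other way, at 14.00, 13.88 and 13.70, against 13.36 on the control array. PARP12 differed by 0.35, 0.29 and 0.21, and PARP10 by 0.18, 0.11 and 0.08.

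Among the TRIM proteins, 1 stood apart from the rest. TRIM22 restricts transcription and assembly of several viruses, and its log2 signal was 10.88 on the let-7d-5p array, 10.87 with miR-27b-3p and 10.42 with miR-151a-5p, against 9.95 on the control array. It was 1.91-fold, 1.89-fold and 1.39-fold higher. TRIM5, the retroviral capsid restriction factor of the same family, differed by 0.23, 0.18 and 0.01. TRIM14, an adaptor of antiviral signalling, differed by 0.24, 0.27 and 0.30, and TRIM21, the cytosolic antibody receptor, by 0.08, 0.00 and -0.04.

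Proteins of membranes, mitochondria and the secretory route had the lowest class median on the let-7d-5p array, and medians of 0.16, 0.18 and 0.16 for 9 genes. LGALS3BP, a secreted glycoprotein that binds galectin-3, was at 9.71 on the let-7d-5p array, 9.93 with miR-27b-3p and 9.55 with miR-151a-5p, against 9.28 on the control array. Its miR-27b-3p value was 1.57-fold higher, the only one of the class past 1.5-fold. XAF1, a pro-apoptotic partner of XIAP, differed by 0.45, 0.48 and 0.57, PLSCR1, a phospholipid scramblase, by 0.38, 0.22 and 0.36, and LY6E, a GPI-anchored protein that limits coronavirus entry, by 0.24, 0.18 and 0.33. Several well-known interferon targets differed little or stood on both sides of the control. IFI27 was at 7.49, 7.42 and 7.44, against 7.45 on the control array, and IFI6 at 16.53, 16.48 and 16.59, against 16.43. BST2, or tetherin, which holds budding virions at the cell surface, was at 11.97, 12.23 and 11.93, against 12.02. SIGLEC1, the macrophage sialic acid receptor, was at 10.28, 10.08 and 10.12, against 10.27. RTP4, a Golgi chaperone of cell surface receptors, was at 9.07 on the let-7d-5p array and 9.08 on the miR-27b-3p array but at 8.53 on the miR-151a-5p array, against 8.91 on the control array. Its miR-151a-5p difference, -0.38, was the lowest of any effector in the 3 comparisons with the control array.

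Nuclear body proteins and their partners had medians of 0.20, 0.16 and 0.19 for 5 genes. IFI16, a nuclear DNA sensor, differed by 0.41, 0.27 and 0.19, and IFI35 by 0.32, 0.16 and 0.47. NMI, the binding partner of IFI35, differed by 0.13, 0.28 and 0.04, so that these partners had opposite orders among the mimic arrays. SP110 stood at 0.20, 0.10 and 0.33 and SP100, a main component of PML bodies, at 0.10, 0.04 and -0.06.

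The helicases and restrictors of translation had medians of 0.32, 0.32 and 0.08 for 7 genes, the lowest class median on the miR-151a-5p array. HELZ2, a helicase and nuclear receptor coactivator with the lowest signals of the list, was at 7.08 on the let-7d-5p array, 6.77 with miR-27b-3p and 7.01 with miR-151a-5p, against 6.48 on the control array. Its let-7d-5p difference of 0.60 was 0.52, under 1.5-fold, with a pseudocount of 16. Its lowest mimic value was on the miR-27b-3p array, whereas that of the other genes of the class was on the miR-151a-5p array. DDX60, a helicase that promotes RIG-I signalling, was at 11.28, 11.22 and 10.91, against 10.83, and its paralog DDX60L at 13.91, 13.87 and 13.63, against 13.60. SAMD9, a codon-specific tRNA nuclease that restricts poxviruses, was at 13.14, 13.21 and 12.71, against 12.82, and SAMD9L at 14.08, 14.06 and 13.83, against 13.74. For all 4 of these genes the miR-151a-5p value lay within 0.11 of the control value. ZNFX1, a helicase that senses viral RNA at mitochondria, differed by 0.32, 0.08 and 0.03, and EPSTI1 by 0.18, 0.32 and 0.09.

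The 31 effectors that were not 1.5-fold apart from the control array in any comparison were set beside the 14059 of all genes that met the same limit. Of those genes 48.6%, 50.2% and 45.2% were higher on the 3 mimic arrays, with medians of 0.00, 0.01 and -0.02. On the let-7d-5p array 30 of the 31 effectors were higher, with a median of 0.25 and a range from -0.05 (BST2) to 0.56 (IFI44). On the miR-27b-3p array 28 were higher, with a median of 0.21 (from -0.19 for SIGLEC1 to 0.55 for PNPT1). On the miR-151a-5p array 24 were higher, with a median of 0.11 (from -0.38 for RTP4 to 0.57 for XAF1). Of the 41 genes, 10, 9 and 5 were among the highest 5% of genes above the floor on the 3 arrays (24.4%, 22.0% and 12.2% of the list).

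**Figure D3:**
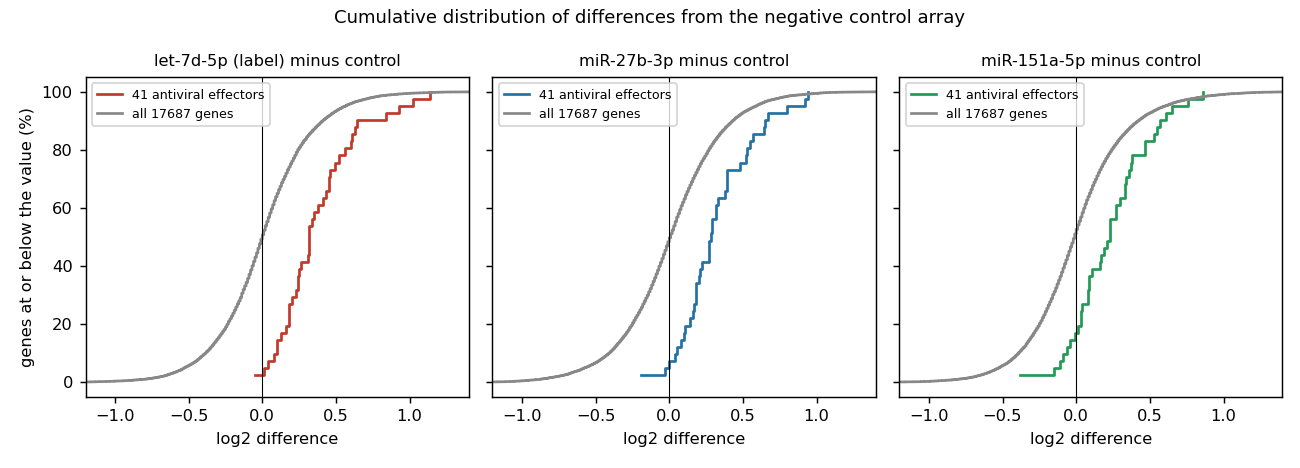
Cumulative share of genes (y axis, percent) at or below each log2 difference from the negative control array (x axis) for the 41 effectors (colour) and all 17687 genes (grey), 1 panel for each mimic array. The effector curve lies to the right of the grey one over most of each panel. Its medians are 0.32, 0.28 and 0.23, against 0.00, 0.01 and -0.01 for all genes. The curves meet at the upper end of each panel. The axis is limited to -1.2 and 1.4.

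Gene neighbours among the effectors are of interest because several pairs arose by duplication or share a promoter. By RefSeq order, 6 pairs were direct neighbours among protein-coding genes: RSAD2 and CMPK2, MX1 and MX2, IFI44 and IFI44L, PARP9 and DTX3L, DDX60 and DDX60L, and SAMD9 and SAMD9L. Within the pairs the differences on the let-7d-5p array were 1.14 and 1.02, 0.84 and 0.63, 0.56 and 0.61, 0.46 and 0.26, 0.45 and 0.31, and 0.32 and 0.34, in the order just given. On the miR-27b-3p array they were 0.64 and 0.94, 0.67 and 0.80, 0.53 and 0.39, 0.57 and 0.33, 0.39 and 0.27, and 0.39 and 0.32, so that CMPK2 and MX2 exceeded their neighbours there. On the miR-151a-5p array they were 0.86 and 0.76, 0.61 and 0.55, 0.27 and 0.17, 0.65 and 0.38, 0.08 and 0.03, and -0.11 and 0.09. Some of these genes are related in sequence, and the cross-hybridization of their probes was not tested.

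The mimic arrays were also compared with each other, which leaves the control array out. Between them no effector was 1.5-fold apart in either direction, against 9.28% of all genes for let-7d-5p and miR-27b-3p, 9.21% for let-7d-5p and miR-151a-5p and 11.4% for miR-27b-3p and miR-151a-5p. Of genes above the floor on at least 1 of the 2 arrays, 463 of 11961, 409 of 11929 and 553 of 11980 were 1.5-fold higher. In the same order 452, 582 and 750 were 1.5-fold lower. The let-7d-5p array was higher than the miR-27b-3p array for 27 of 41 effectors (49.0% of all genes), with a median of 0.06 and a range from -0.26 (BST2) to 0.50 (RSAD2). It was higher than the miR-151a-5p array for 32 (52.0% of all genes), with a median of 0.15 and a range from -0.19 (PARP9) to 0.54 (RTP4). The miR-27b-3p array was higher than the miR-151a-5p array for 26 (52.1% of all genes), with a median of 0.08 and a range from -0.31 (IFI35) to 0.55 (RTP4). The medians of all genes in these 3 comparisons were 0.00, 0.02 and 0.02. Among the 3 mimic arrays, let-7d-5p was the highest for 23 of the 41 effectors (56.1%, against 32.4% of all genes) and miR-151a-5p the lowest for 26 of 40 without ties (65.0%, against 36.7% of all genes). The standard deviation of the effectors' differences in these 3 comparisons was 0.15, 0.18 and 0.20. For all genes it was 0.35, 0.35 and 0.39, and for genes above the floor 0.33, 0.34 and 0.40. The median effector signal was 12.09 to 12.35 on the mimic arrays, against 6.89 to 6.92 for all probe sets. The part of signal level in the smaller spread, and in the lack of 1.5-fold differences, was not tested.

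**Figure D4:**
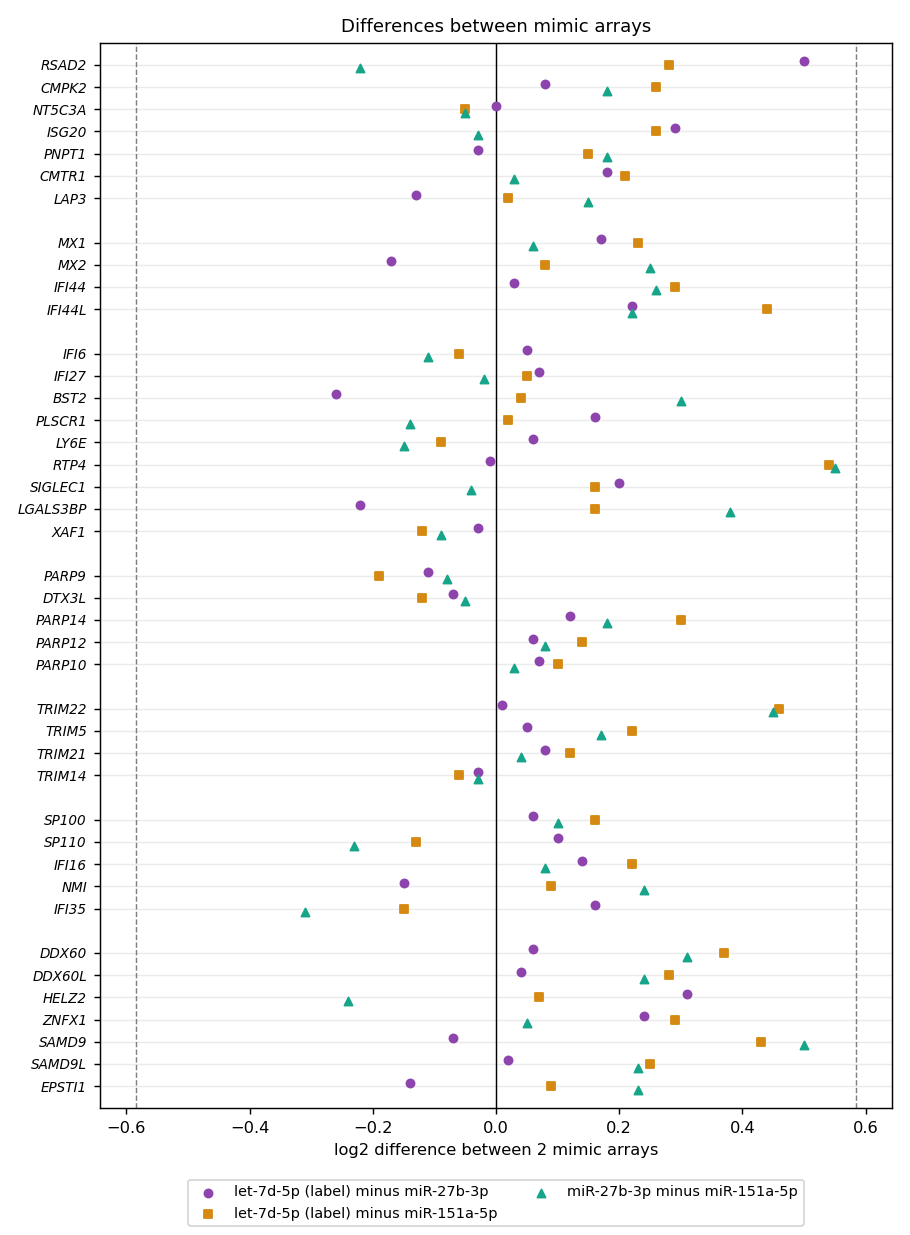
Log2 difference of each effector between pairs of mimic arrays (x axis), 1 point for each pair, with dashed lines at 1.5-fold. All points lie between the dashed lines; those farthest to the right belong to RTP4 (0.55 and 0.54), RSAD2 and SAMD9 (0.50 each).

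Genes that act upstream of the effectors are given as groups. Interferon genes were measured for 20 of 21, of which 2 (IFNA14 and IFNL3) were above the floor, and IFNB1 was at 4.70, 4.70 and 4.05 on the mimic arrays, against 4.28 on the control array, all below the floor. IFNA14 was at 5.78, 5.98 and 6.11, against 6.38 on the control array, and IFNL3 at 6.44, 6.12 and 6.57, against 6.45. The median differences of the 20 interferon genes were 0.01, 0.07 and 0.07, mostly from signals below the floor. Higher than on the control array were 10, 11 and 11 of the 20, against 49.2%, 50.3% and 47.3% of all genes. Receptors and their kinases had medians of 0.01, 0.11 and 0.02, with 5, 6 and 5 of 9 higher. JAK2, a kinase of the interferon-gamma receptor, was at 9.90, 9.74 and 9.30, against 9.18, and was the only one of them 1.5-fold higher, on the let-7d-5p array (0.72). The receptor subunit IFNAR1 differed by -0.13, 0.26 and 0.08. Transcription factors were measured for 9 of 11, with medians of 0.02, 0.17 and -0.09 and with 6, 6 and 3 higher. IRF3, which induces interferon genes, was at 4.82, 4.85 and 4.85, all below the floor, against 6.04 on the control array, and IRF2 was at 11.14, 11.17 and 11.18, against 11.57. These values set the control array apart from all 3 mimic arrays by nearly the same amount, and their part in the effectors' differences was not tested. IRF7, which amplifies interferon induction and is itself an interferon target, was at 6.67, 6.34 and 6.79, against 5.94 on the control array, and IRF9, the DNA-binding partner of the STATs, at 12.35, 12.50 and 12.07, against 12.33. Inhibitors of the response had medians of -0.04, -0.05 and -0.27, with 3, 3 and 1 of 7 higher. USP18, which removes ISG15 and blocks the receptor, was the only inhibitor past 1.5-fold (0.69 with let-7d-5p and 0.73 with miR-151a-5p), at 12.11, 11.85 and 12.15, against 11.42 on the control array. Among the mimic arrays, IRF7 (6.79) and USP18 (12.15, against 12.11 with let-7d-5p) were highest with miR-151a-5p. JAK2 (9.30) and IRF9 (12.07) were lowest there. On that array 9 of the 41 effectors (22.0%) had their highest mimic value, against 31.1% of all genes. How these genes relate to the effectors was not tested.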

How the data were processed

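The values deposited by the authors were log2 signals per probe set of 4 arrays, made with RMA in Transcriptome Analysis Console 4.0 per the submitters' processing notes (background correction, equalized array distributions, probe summary). A shift common to all genes would have been removed by that step. No probe coordinates are printed, since their genome build was not stated. Of 21448 probe sets 17709 had 1 gene symbol, 0 several and 3739 none. They named 17687 genes, and 20 genes had more than 1 probe set, of which the brightest on average stood for the gene, and no effector had more than 1. A difference is the log2 value of one array minus that of another, with sizes of 1.5-fold and 2-fold beside the 3-fold of the study. With 1 array in each group no test was run, and precision is limited by the number of arrays. Effectors at least 1.5-fold apart from the control array on any mimic array (10 genes) were given with all values. The genes, their classes and the lists were chosen with earlier results of these data known. Alternatives were array centring, quantile and cyclic loess normalization (limma 3.58.1, R 4.3.3), a pseudocount of 16, the floor as a filter and the mean of probe sets. Counting was tested on simulated data. Calculations used Python 3.11.15, numpy 2.4.6 and pandas 2.3.3, and plots matplotlib 3.10.9. Motifs were searched in RefSeq promoter windows of GRCh38.p14.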

Additional observations from a re-analysis of the deposited data

Results flagged for a closer look

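For 2 effectors the difference from the control array had opposite signs on different mimic arrays, each beyond 0.1 on the log2 scale. RTP4 differed by 0.16 with let-7d-5p, 0.17 with miR-27b-3p and -0.38 with miR-151a-5p. SAMD9 differed by 0.32, 0.39 and -0.11 in the same order. With 1 array in each group the difference between the mimics was not tested for either gene.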

How the results depend on the processing

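The results in question were the median difference of the effectors and their counts that were higher, 1.5-fold higher and 2-fold higher, in all 6 comparisons under 6 alternatives, and the 18 single differences past 1.5-fold. None of the 144 values of the summaries or the 108 values of single genes changed sign or moved by more than 1.5 times. The floor filter and the mean of probe sets could not move any of them. No effector lay below the floor or had several probe sets, so these alternatives returned the main values. With the pseudocount HELZ2 on the let-7d-5p array fell below 1.5-fold (0.52), the only one of the 18 that did under any alternative. The medians ran from 0.319 to 0.36 for the let-7d-5p array minus the control, 0.27 to 0.29 for miR-27b-3p and 0.22 to 0.265 for miR-151a-5p. The counts at 1.5-fold ran from 7 to 9, from 6 to 6 and from 4 to 6. Centring the arrays moved the share of all genes that were higher to 55.5% for let-7d-5p and 53.4% for miR-151a-5p, while 97.6% and 85.4% of the effectors were then higher. No paired analysis was possible because each group had 1 array, and for the same reason no array could be left out. These settings say nothing about the spread between cultures. A change common to the mimic cultures and a deviation of the single control array cannot be told apart.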
